A study of Mus musculus with 10 samples.

Results

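The subject is the chemokine system of the infarcted mouse left ventricle: the genes for chemokines, the genes for their receptors and the genes for the atypical receptors that remove them. Members were the rows of the expression table whose symbol starts with Ccl, Cxcl, Ccr or Cxcr followed by a digit, together with Cx3cl1, Cx3cr1, Xcl1, Xcr1 and Ackr1 to Ackr4. 1 further CC receptor gene and 3 pseudogenes were left out by the rule. This gave 59 genes of the 49585 rows, of which 37 encode ligands and 22 encode receptors. The ligands comprised 16 inflammatory CC, 5 neutrophil-attracting ELR CXC, 2 interferon-inducible CXC, 11 homeostatic and 3 transmembrane or XC chemokines. The receptors comprised 10 CC, 8 CXC, CX3C or XC and 4 atypical receptors.

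Chemokines are small secreted proteins that draw leukocytes along a gradient by binding G-protein-coupled receptors on them. Inflammatory chemokines are induced by cytokines and bring neutrophils, monocytes and T cells into injured muscle, whereas homeostatic ones such as CXCL12 are made continuously by stroma and endothelium and place stem cells, lymphocytes and vascular cells. Atypical receptors bind chemokines without G-protein signalling and take them up, which shapes the gradient. After myocardial infarction the system is known for the entry of neutrophils and monocytes in the first days and for CXCL12 signalling in the border zone and its vessels.

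RNA came from the left ventricle, freed of atria, valves and right ventricle, of male ICR mice, an outbred stock. All 10 samples came from hearts with a myocardial infarction and were collected 4 weeks later. 5 libraries were from mice given phosphate-buffered saline (PBS) and 5 from mice given 4FM3, a treatment that the series title links to reprogramming in the living heart with adeno-associated virus. The labels also carry a time of 8 weeks with no stated starting point, and the sources used here give neither the age of the mice nor the genes and vectors behind 4FM3, their promoter or the cells they reach. No group was uninjured and none is labelled as given an empty vector, so the values compare infarcted ventricles only. The labels number the libraries without stating that each is 1 mouse, so the p-values cover the spread among the libraries, which may be partly technical.

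Libraries held from 6634159 to 7711177 counts. The defining markers of heart muscle were present in all of them, with 9 cardiomyocyte genes summing to between 66470 and 90040 CPM (read counts relative to the scaled library size) in PBS and to between 99780 and 121100 CPM in 4FM3. 2 PBS libraries stood apart before any comparison: 8 lung markers summed to 944 and 910 CPM in PBS replicates 2 and 3, to 21.5 CPM in 4FM3 replicate 2 and to at most 5.02 CPM in the other 7 libraries. Values come from all 10 libraries, and the fitted difference of each tested member named below is given again without PBS replicates 2 and 3, as are the counts of called list genes that differed there.

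The start regions of 6 members are shown. Ackr3, Cxcl12 and Cx3cl1 differed between the groups. The neighbouring paralogs Cxcl1, Cxcl2 and Cxcl3 share a κB match, which most member windows lacked whether or not the gene differed. Each region is the 300 bases from 250 before to 50 after the RefSeq start on GRCm38.p6, the build with mm10 coordinates, written 5′ to 3′ on the gene's strand. All 6 genes lie on the plus strand. Capitals mark matches, in either orientation, to a κB motif (the NF-κB site, searched by its usual consensus), to ACGTG (the core of a hypoxia response element) and to the core of the TATA box spelled TATAA. Overlapping matches run together.
Ackr3, chr1:90203730-90204029: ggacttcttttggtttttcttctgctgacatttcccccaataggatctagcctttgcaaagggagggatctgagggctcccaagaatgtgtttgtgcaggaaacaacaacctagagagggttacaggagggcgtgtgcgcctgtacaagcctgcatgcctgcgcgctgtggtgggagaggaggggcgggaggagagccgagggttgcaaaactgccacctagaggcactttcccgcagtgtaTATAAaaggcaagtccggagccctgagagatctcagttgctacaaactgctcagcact
Cxcl12, chr6:117168285-117168584: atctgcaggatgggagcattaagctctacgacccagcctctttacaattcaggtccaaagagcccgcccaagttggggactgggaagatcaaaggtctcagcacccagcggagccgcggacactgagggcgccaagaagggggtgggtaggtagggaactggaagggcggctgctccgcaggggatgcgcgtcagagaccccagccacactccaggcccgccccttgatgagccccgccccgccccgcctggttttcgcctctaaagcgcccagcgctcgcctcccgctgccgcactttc
Cx3cl1, chr8:94771930-94772229: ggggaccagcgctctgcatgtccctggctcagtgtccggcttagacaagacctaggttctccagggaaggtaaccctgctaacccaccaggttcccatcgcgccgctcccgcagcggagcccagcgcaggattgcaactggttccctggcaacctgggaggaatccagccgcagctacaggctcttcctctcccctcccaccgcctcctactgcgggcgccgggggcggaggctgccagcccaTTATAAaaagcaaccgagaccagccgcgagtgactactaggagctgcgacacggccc
Cxcl1, chr5:90890995-90891294: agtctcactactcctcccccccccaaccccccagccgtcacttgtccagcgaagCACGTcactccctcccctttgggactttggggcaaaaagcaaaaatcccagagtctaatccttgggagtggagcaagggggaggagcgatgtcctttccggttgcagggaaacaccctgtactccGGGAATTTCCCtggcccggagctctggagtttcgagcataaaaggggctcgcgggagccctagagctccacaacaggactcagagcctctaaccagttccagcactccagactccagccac
Cxcl2, chr5:90903649-90903948: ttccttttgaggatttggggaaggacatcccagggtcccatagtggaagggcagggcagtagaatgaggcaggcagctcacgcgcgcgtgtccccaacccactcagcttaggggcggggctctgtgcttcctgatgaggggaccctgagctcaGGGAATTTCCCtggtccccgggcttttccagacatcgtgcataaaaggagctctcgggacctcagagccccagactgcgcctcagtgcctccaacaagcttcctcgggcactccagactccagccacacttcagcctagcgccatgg
Cxcl3, chr5:90785851-90786150: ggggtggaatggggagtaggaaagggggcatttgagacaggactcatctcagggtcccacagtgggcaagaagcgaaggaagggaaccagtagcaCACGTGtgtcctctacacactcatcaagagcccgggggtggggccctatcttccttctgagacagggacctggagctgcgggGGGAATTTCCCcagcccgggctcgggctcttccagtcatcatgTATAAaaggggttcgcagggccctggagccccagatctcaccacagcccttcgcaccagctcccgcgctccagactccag

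Of the 6 members that passed the test described below, 5 had a promoter in the RefSeq table (Cxcl16 had no entry), and none of those 5 windows held a match to the κB motif, to TTCNNNGAA (the site of STAT factors called GAS) or to the interferon-stimulated response element, searched by its usual consensus. The search was widened to all members after that was seen. The κB motif then matched in 8 of 45 member windows (17.8%) and in 4.35% of the 27025 windows of the same length in the table. Cxcl1, Cxcl2 and Cxcl3 are paralogs and were among these 8, so the matches are not independent of one another. The interferon-stimulated response element was found in 3 of the 45 windows (6.67%, against 3.49% of all), TTCNNNGAA in 4 (8.89% against 8.47%), ACGTG in 7 (15.6% against 19.7%) and TATAA in 16 (35.6% against 25.5%). In 38 of the 45 windows bases after the start lay somewhere in a GENCODE transcript of the gene, and the placing of the others is less certain. That check bears on the gene and its strand, and it does not fix the exact start in any window. Among those others were Ccl21b, with an ACGTG match, and Ccr1l1, with ACGTG and TTCNNNGAA matches. In Cxcl3 the TATAA match lay between positions -30 and -26 from the start, and in Ackr3 between -8 and -4. The Cxcl12 window held no match to any of the 5 motifs and had 20 CpG pairs, compared with a median of 7 over all windows. A match is only a run of letters, and nothing in these data measured binding there.

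At the level of the family, 2 members were higher and 4 were lower in 4FM3 than in PBS. Ackr3 and Cxcl12 rose, and Cx3cl1, Cxcl16, Cxcr4 and Xcr1 fell. Counts were compared with the quasi-likelihood test of edgeR fitted to all genes with enough counts, and a difference passed at a Benjamini-Hochberg adjusted p under 0.05. In that fit 22 members were tested, 15 ligands and 7 receptors. The 2 higher members were 9.09% of the 22, below the 20.9% of all 12906 tested genes that were higher in 4FM3, and the 4 lower members were 18.2%, near the 22.1% of all genes that were lower. The median log2 fold change of the tested members was -0.49, against -0.03 over all genes, and 17 of the 22 lay below 0, against 53% of all genes. Because members entered the fit only when expressed in at least 1 group, these values describe the 22 and not the family. Without PBS replicates 2 and 3, 1 of 23 tested members was higher (4.35%, against 14.2% of all genes) and 2 were lower (8.7%, against 12.8%), with a median of -0.29 and 13 members below 0.

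**Figure D1:**
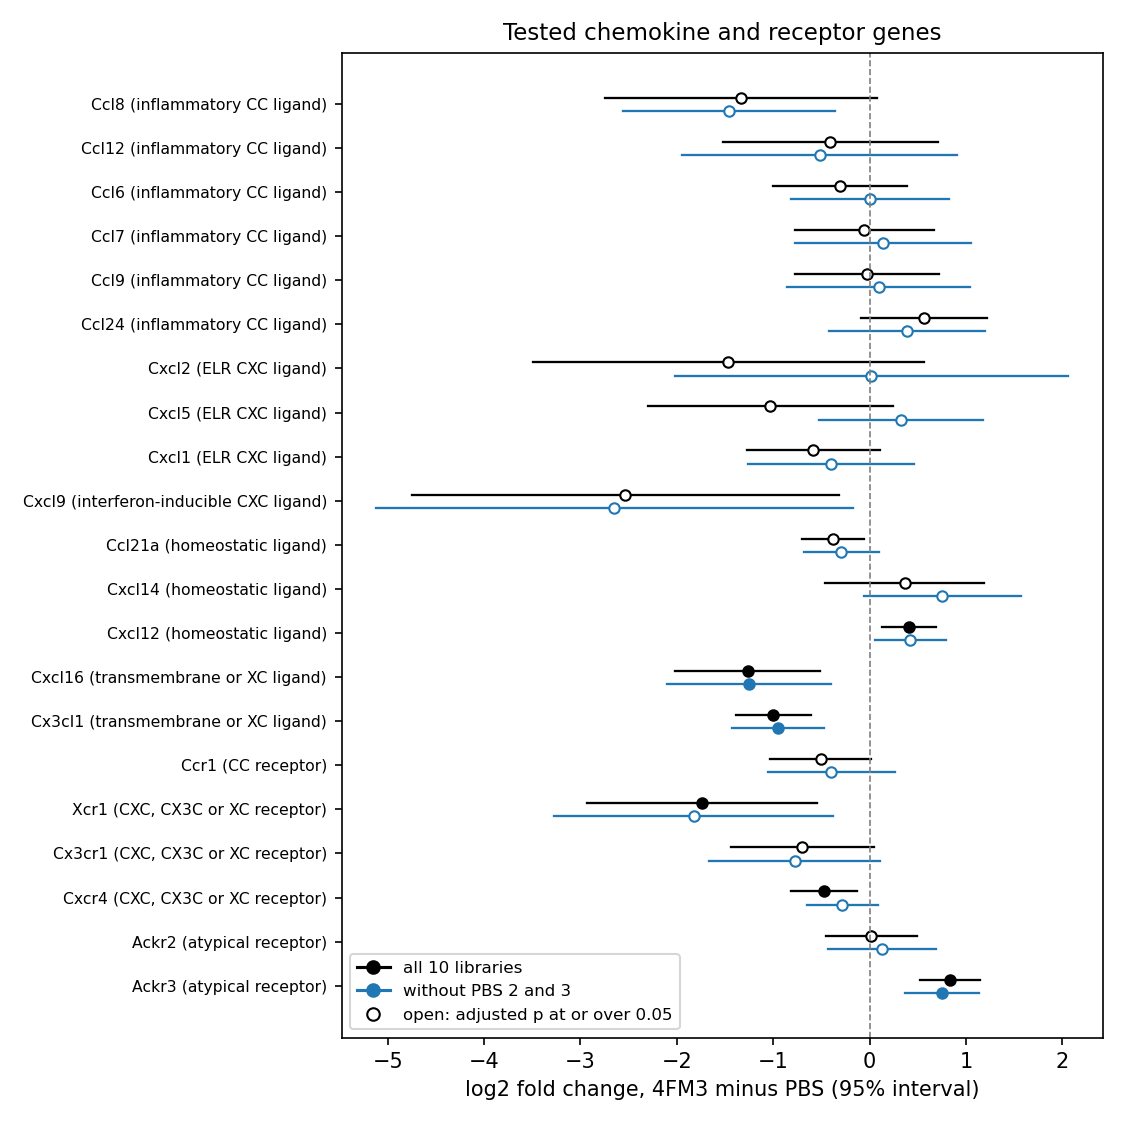
Fitted log2 fold change (4FM3 minus PBS, horizontal axis) with its 95% interval for the tested members named in the text, grouped by role, with all 10 libraries in black and without PBS replicates 2 and 3 in blue; filled points passed an adjusted p of 0.05. Ackr3, Cx3cl1 and Cxcl16 are filled in both sets, and Cxcl2 and Cxcl5 move from below 0 to just above it when the 2 PBS libraries are left out.

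Of the genes for CXCL12 and its receptors, Cxcl12 and Ackr3 were higher and Cxcr4 lower with all 10 libraries. Only Ackr3 also passed without PBS replicates 2 and 3. Ackr3 encodes the atypical receptor that binds and clears CXCL12. Its level was 81.8, 67.4, 60.8, 84.7 and 60.03 CPM in PBS replicates 1 to 5 and 163, 116, 120, 135 and 98.7 CPM in 4FM3 replicates 1 to 5. The lowest 4FM3 library was above the highest PBS library, so the groups did not overlap. The mean was 70.9 ± 11.6 CPM in PBS and 127 ± 24.4 CPM in 4FM3 (SD, n = 5 each), a 1.78-fold higher level (log2 fold change 0.84, SE 0.14, adjusted p = 0.00093). Without PBS replicates 2 and 3 it was 1.69-fold higher (adjusted p = 0.013). Ackr3 was the only tested member that was higher with no overlap between the groups, a pattern found in 14.1% of all tested genes.

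Cxcl12, the homeostatic ligand that retains stem cells and guides vessels, had the highest level of any member per length, at 32 CPM per kb of exon in PBS and 42.5 in 4FM3. It stood at 331, 240, 286, 261 and 190 CPM in PBS and at 357, 330, 378, 379 and 294 CPM in 4FM3. PBS replicate 1 lay inside the 4FM3 range, and the other 4 PBS libraries lay below every 4FM3 library. The level was 1.33-fold higher in 4FM3 (262 ± 52.4 against 348 ± 36.2 CPM, log2 fold change 0.41, SE 0.13, adjusted p = 0.023). The size was similar without PBS replicates 2 and 3 (1.34-fold), but the call was lost (adjusted p = 0.082). It was also lost without PBS replicate 2 alone (log2 fold change 0.39, adjusted p = 0.058), without 4FM3 replicate 3 (0.38, 0.055) and without 4FM3 replicate 4 (0.38, 0.055). With library size alone as scaling, which moved the median of all genes from -0.03 to -0.20, the log2 fold change of Cxcl12 was 0.24 (adjusted p = 0.103).

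Cxcr4, the signalling receptor for CXCL12 on leukocytes and endothelial cells, was lower. Its level was 14.8, 21.3, 19.1, 14.7 and 15.7 CPM in PBS and 13.3, 14.7, 8.01, 13.0 and 12.4 CPM in 4FM3. The highest 4FM3 library and the lowest PBS library were level to 3 digits, and 4FM3 replicate 3 was the lowest of all. The ratio was 1.39-fold lower (17.1 ± 2.91 against 12.3 ± 2.53 CPM, log2 fold change -0.48, SE 0.16, adjusted p = 0.028). Without PBS replicates 2 and 3, the 2 highest libraries and those with lung transcripts, it was 1.22-fold lower and did not pass (adjusted p = 0.231). Leaving out only 1 library also ended the call for PBS replicate 2 (log2 fold change -0.38, adjusted p = 0.084), PBS replicate 3 (-0.42, 0.072) and 4FM3 replicate 3 (-0.36, 0.054). In whole tissue such as this, fewer cells of a type and less RNA per cell cannot be told apart. The 9 blood endothelial markers, a cell type that carries both CXCL12 receptors, summed to between 826 and 1014 CPM in PBS and to between 1065 and 1206 CPM in 4FM3, and their part in these differences was not tested.

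**Figure D2:**
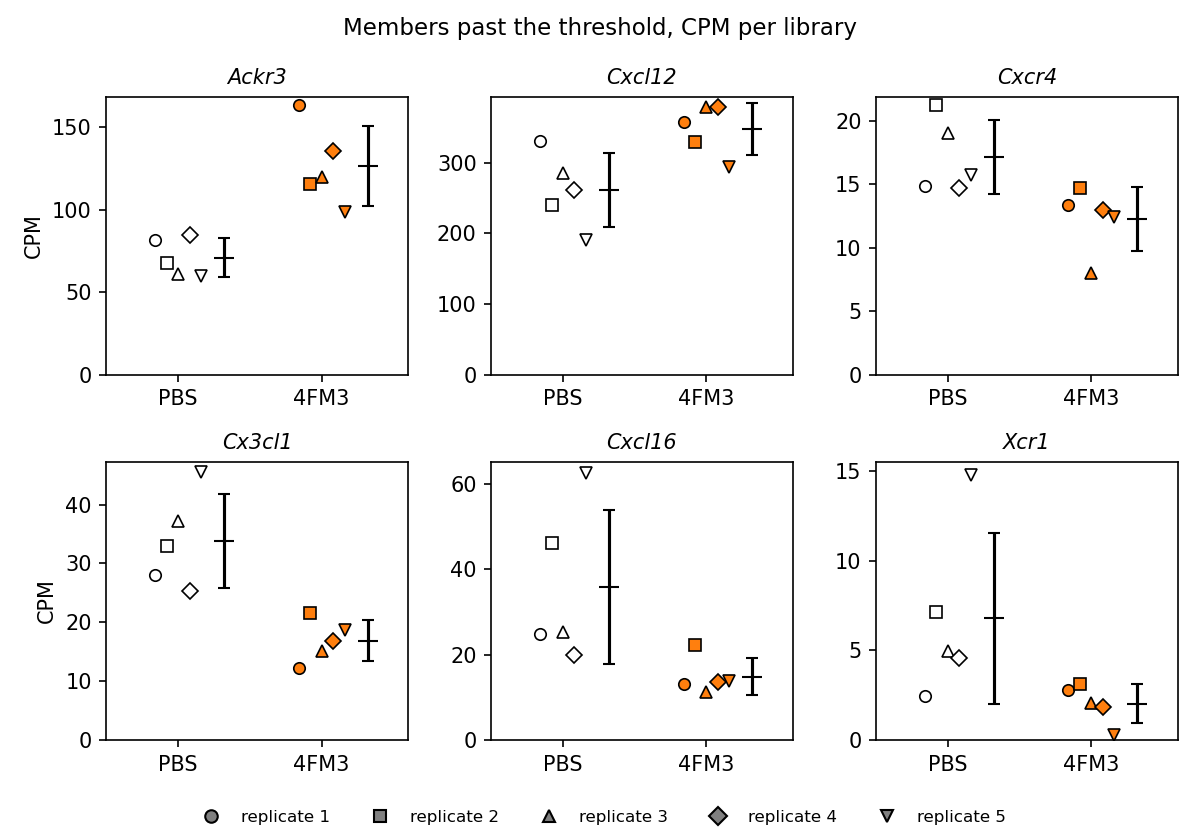
CPM (vertical axis, from 0) of the 6 members that passed the test, 1 point per library with the marker shape giving the replicate number, PBS in white and 4FM3 in orange; the bar beside each group is the mean ± SD (n = 5). The groups are apart for Ackr3 and Cx3cl1, touch for Cxcr4, and overlap by 1 library for Cxcl16 and Cxcl12, while PBS replicates 2 and 5 are the 2 highest for Cxcl16 and Xcr1.

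Both chemokines that are made as membrane-bound proteins fell. Cx3cl1, fractalkine, is carried by endothelium and other cells and released by the proteases ADAM10 and ADAM17. It read 28.0, 33.0, 37.1, 25.3 and 45.6 CPM in PBS and 12.3, 21.6, 15.1, 16.8 and 18.6 CPM in 4FM3. Every PBS library was above every 4FM3 library, and Cx3cl1 was the only tested member lower in this way, a pattern found in 13.4% of all tested genes. The level was 1.997-fold lower (33.8 ± 8.01 against 16.9 ± 3.54 CPM), with a log2 fold change of -0.998, an SE of 0.18 and an adjusted p of 0.0012, and 1.93-fold lower without PBS replicates 2 and 3 (adjusted p = 0.012).

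Cxcl16, a ligand of CXCR6 that also acts as a scavenger receptor, read 24.9, 46.2, 25.3, 20.0 and 62.6 CPM in PBS and 13.2, 22.3, 11.2, 13.6 and 13.9 CPM in 4FM3. PBS replicates 2 and 5 were the highest, and 4FM3 replicate 2 alone reached the PBS range. The level was 2.40-fold lower (35.8 ± 18.1 against 14.8 ± 4.31 CPM, log2 fold change -1.26, SE 0.34, adjusted p = 0.013) and 2.38-fold lower without PBS replicates 2 and 3 (adjusted p = 0.039). Leaving out PBS replicate 5 gave a log2 fold change of -0.95 (adjusted p = 0.019), and leaving out PBS replicates 2 and 5 gave -0.65 (adjusted p = 0.032). Cxcl16 overlaps Zmynd15 on the other strand, and the sources do not state whether counting used the strand, so reads of the pair may not be separated. The third gene of the class, Xcl1, made by natural killer and T cells, had 0 to 8 counts in PBS and 0 or 1 in 4FM3 and was not tested.

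The receptors of these ligands were measured as well. Cx3cr1, the fractalkine receptor of macrophages and monocytes, read 30.6, 43.4, 29.2, 28.7 and 70.5 CPM in PBS and 29.0, 36.5, 20.99, 26.2 and 11.9 CPM in 4FM3. PBS replicate 5 was the highest and 4FM3 replicate 5 the lowest, and the other 8 libraries overlapped. The fitted ratio of 1.62-fold lower did not pass (log2 fold change -0.70, 95% interval -1.44 to 0.04, adjusted p = 0.114), nor did the 1.72-fold lower value without PBS replicates 2 and 3 (adjusted p = 0.164). In GENCODE M21 the Cx3cr1 model spans several other genes, Xirp1 among them, so its reads are not certain to be its own. Cxcr6, the receptor for CXCL16 on T cells, had 0 to 4 counts in PBS and 0 to 2 in 4FM3.

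Xcr1, which marks the dendritic cells that take up dead cells and show their antigens to CD8 T cells, was lower. It read 2.47, 7.17, 4.95, 4.56 and 14.8 CPM in PBS and 2.76, 3.11, 2.08, 1.85 and 0.289 CPM in 4FM3. PBS replicate 1 lay within the 4FM3 range, PBS replicate 5 stood far above, and 4FM3 replicate 5 held only 2 counts. The ratio was 3.35-fold lower (6.79 ± 4.78 against 2.02 ± 1.09 CPM, log2 fold change -1.74, SE 0.54, adjusted p = 0.024). The call was lost without PBS replicates 2 and 3 (3.54-fold lower, adjusted p = 0.063), without 4FM3 replicate 3 (log2 fold change -1.75, adjusted p = 0.051) and without 4FM3 replicate 4 (-1.71, 0.053). It stood at -0.98 without PBS replicates 2 and 5 (adjusted p = 0.141). The 8 dendritic cell markers summed to between 69.8 and 118 CPM in PBS and to between 64.0 and 77.4 CPM in 4FM3. Of the 6 tested, 5 fell, among them Clec9a, found on the same cells as Xcr1 (1.65-fold lower), Cd209a (3.74-fold lower), Flt3 (3.02-fold lower) and Itgae (2.88-fold lower), and 1 rose, while 22.1% of all genes were lower. The 1 that rose was not among the 4 with the smallest p. The 4 named had means of 10.1, 3.74, 5.62 and 7.67 CPM in PBS and 6.14, 0.976, 1.83 and 2.63 CPM in 4FM3, so most of the summed level lay in other markers of the list. With PBS replicates 2 and 3 left out, 3 of 7 fell and 1 rose (12.8% of all genes lower), and Itgae did not pass (adjusted p = 0.081). Their part in the Xcr1 difference was not tested.

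The 6 tested inflammatory CC ligands gave no call in either direction, and at an unadjusted p under 0.05 also none, nor did DESeq2 or limma-voom call any. Ccl8, in mice a ligand of CCR8, read 9.37, 17.5, 1.36, 4.05 and 23.2 CPM in PBS and 5.98, 3.82, 5.45, 2.62 and 4.05 CPM in 4FM3. PBS replicates 2 and 5 were high and PBS replicate 3 was the lowest of the 10. The fitted ratio was 2.53-fold lower with a wide interval (log2 fold change -1.34, 95% interval -2.75 to 0.07, adjusted p = 0.113), and it passed when PBS replicate 3 was left out (-1.60, adjusted p = 0.019). It did not pass without PBS replicates 2 and 3 (-1.46, adjusted p = 0.054), and it stood at -0.16 without PBS replicates 2 and 5, the 2 highest libraries (adjusted p = 0.839).

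Ccl9 and Ccl6 encode ligands of CCR1 in mice that macrophages make. Ccl9 read 18.8, 19.2, 13.6, 7.72 and 15.1 CPM in PBS and 14.7, 6.5, 15.2, 11.1 and 25.6 CPM in 4FM3. Ccl6 read 8.46, 11.3, 10.03, 5.57 and 6.31 CPM in PBS and 5.52, 4.38, 5.93, 4.47 and 13.3 CPM in 4FM3. In both genes 4FM3 replicate 5 was the highest library of all 10. The log2 fold changes were -0.02 for Ccl9 (95% interval -0.77 to 0.72) and -0.31 for Ccl6 (-1.004 to 0.39), and Ccl6 passed when 4FM3 replicate 5 was left out (-0.72, adjusted p = 0.021). With PBS replicates 2 and 3 left out they were 0.09 for Ccl9 (adjusted p = 0.889) and 0.0025 for Ccl6 (adjusted p = 0.997). Ccl6 overlaps E230016K23Rik on the other strand, so its count is uncertain.

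Ccl24, an eosinophil attractant, read 3.78, 1.76, 1.98, 3.17 and 1.03 CPM in PBS and 3.68, 2.83, 3.04, 4.47 and 3.32 CPM in 4FM3. The groups overlapped through PBS replicates 1 and 4, the ratio of 1.48-fold higher did not pass (adjusted p = 0.150), and it passed without PBS replicate 1 (log2 fold change 0.80, adjusted p = 0.049) but not without PBS replicates 2 and 3 (1.31-fold higher, adjusted p = 0.450). Ccl7, a monocyte attractant, read 2.99, 3.27, 2.72, 1.27 and 2.45 CPM in PBS and 3.53, 2.54, 2.56, 2.78 and 0.867 CPM in 4FM3, with a log2 fold change of -0.05, and of 0.14 without PBS replicates 2 and 3 (adjusted p = 0.823). Ccl12, a monocyte attractant known from mice, read 1.95, 1.76, 1.73, 2.03 and 2.58 CPM in PBS and 0.920, 2.54, 2.72, 1.39 and 0 CPM in 4FM3. The PBS libraries lay close together while the 4FM3 libraries spread on both sides of them, and 0 counts in 4FM3 replicate 5 allow up to 0.434 CPM. The log2 fold change of Ccl12 was -0.41 (adjusted p = 0.545), and -0.52 without PBS replicates 2 and 3 (adjusted p = 0.573).

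Of the neutrophil attractants acting on CXCR2, Cxcl2 and Cxcl5 were highest in PBS replicates 2 and 3. Cxcl2 read 4.69, 13.3, 6.07, 0.380 and 0.258 CPM in PBS and 3.07, 0.848, 0.641, 3.39 and 1.01 CPM in 4FM3. Cxcl5 read 2.34, 9.94, 8.42, 1.90 and 1.42 CPM in PBS and 1.69, 1.13, 2.40, 2.93 and 3.61 CPM in 4FM3. Both were low in PBS replicates 4 and 5, which for Cxcl2 were the 2 lowest of all 10 libraries. Cxcl1 was more even, with 2.21, 2.89, 2.23, 1.52 and 2.06 CPM in PBS and 1.07, 1.55, 2.72, 1.08 and 0.867 CPM in 4FM3. None of the 3 passed with all libraries (adjusted p = 0.217, 0.169 and 0.155 in edgeR), nor at an unadjusted p under 0.05, and DESeq2 and limma-voom called 0 of them. Without PBS replicates 2 and 3 the log2 fold change went from -1.47 to 0.02 for Cxcl2 and from -1.03 to 0.32 for Cxcl5. Cxcl1 passed when 4FM3 replicate 3 was left out (-0.92, adjusted p = 0.029) and was 1.32-fold lower without PBS replicates 2 and 3 (adjusted p = 0.472).

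The other genes of this axis followed the same libraries. Cxcl3 had 3, 29, 11, 1 and 0 counts in PBS and 2, 0, 5, 12 and 12 in 4FM3, and Cxcr2, the receptor of neutrophils, had 6, 30, 19, 0 and 1 counts in PBS and 1, 2, 5, 18 and 12 in 4FM3. PBS replicates 2 and 3 were the highest of their group and 4FM3 replicates 4 and 5 the highest of theirs for both. The 12 neutrophil markers, of which 3 were tested and none passed in edgeR or DESeq2 (1 at an unadjusted p under 0.05), summed to 33.5 and 22.7 CPM in PBS replicates 2 and 3, to between 4.18 and 13.1 CPM in the other PBS libraries and to between 6.22 and 13.2 CPM in 4FM3, with Elane at 0 in every library. Cxcl15, a CXC ligand of lung epithelium in mice, had 338 and 360 counts in PBS replicates 2 and 3, 10 in 4FM3 replicate 2 and 0 in the other 7 libraries. These are the libraries in which the lung markers were found. The part of lung or neutrophil RNA in Cxcl2 and Cxcl5 was not tested.

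**Figure D3:**
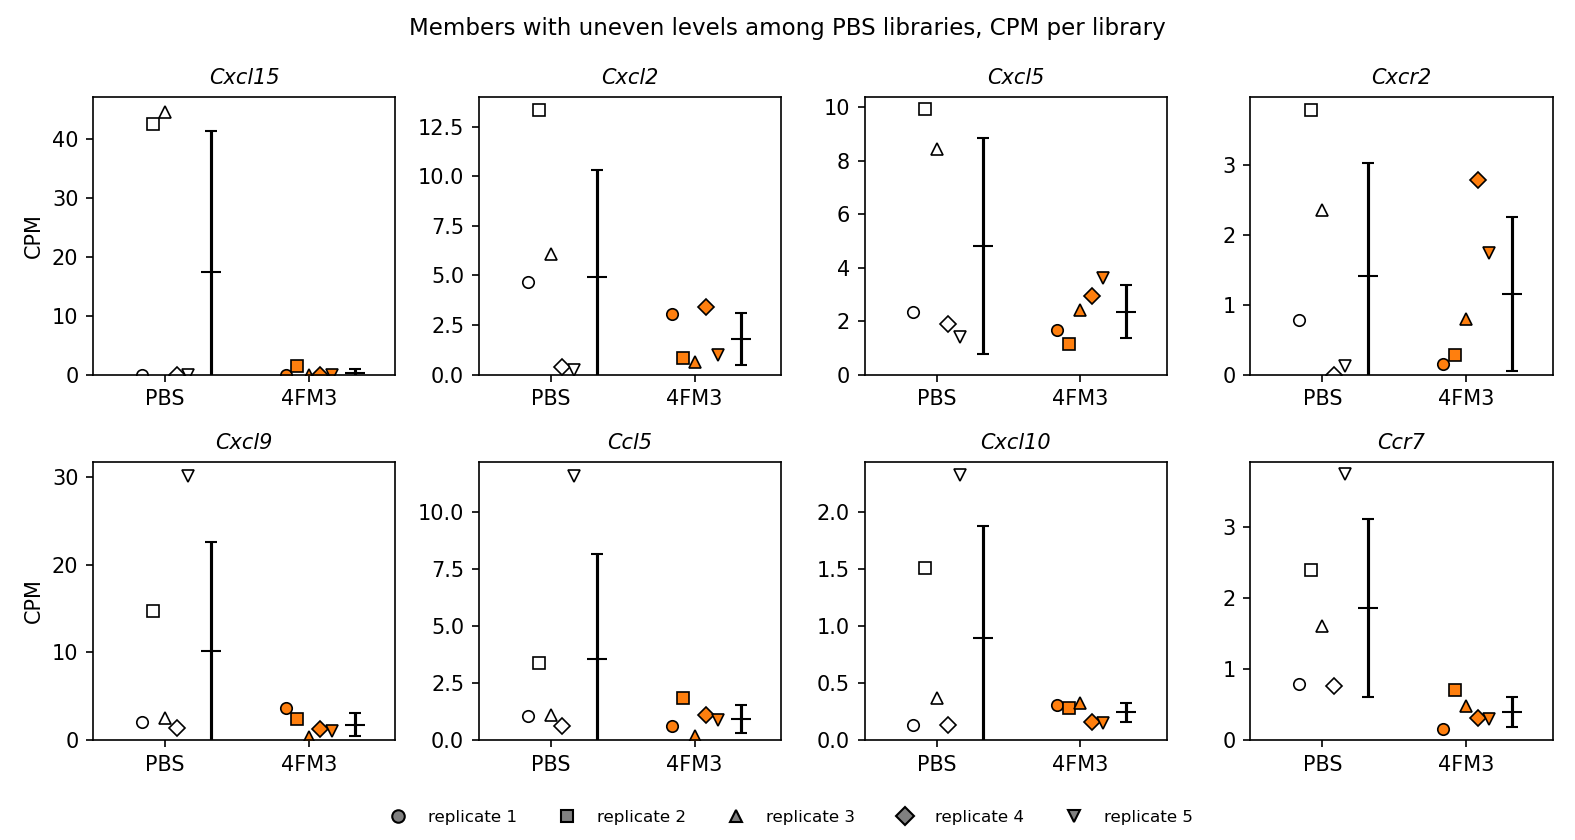
CPM (vertical axis, from 0) by group for 8 members whose PBS libraries were uneven, picked after their values were seen; points are libraries with shapes for replicate numbers, and bars are the mean ± SD (n = 5). Among the PBS libraries, Cxcl15, Cxcl2, Cxcl5 and Cxcr2 are highest in replicates 2 and 3, whereas Cxcl9, Ccl5, Cxcl10 and Ccr7 are highest in PBS replicates 5 and 2.

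Interferon-inducible ligands and their receptor were highest in PBS replicates 5 and 2. Cxcl9, induced by interferon-gamma and read by CXCR3 on T cells, read 2.08, 14.7, 2.48, 1.39 and 30.1 CPM in PBS and 3.68, 2.40, 0.320, 1.23 and 1.01 CPM in 4FM3. PBS replicates 5 and 2 lay far above the rest, and the other 3 PBS libraries lay within the 4FM3 range. The fitted ratio was 5.79-fold lower (log2 fold change -2.53, 95% interval -4.75 to -0.32, adjusted p = 0.063) and did not pass in edgeR, while DESeq2 called it (adjusted p = 0.021), limma-voom did not (-1.85, adjusted p = 0.196) and library size alone as scaling did (-2.74, adjusted p = 0.047). It also passed without PBS replicate 1 (-2.79, adjusted p = 0.045) and without PBS replicate 4 (-2.80, adjusted p = 0.038), but not without PBS replicates 2 and 3 (6.27-fold lower, adjusted p = 0.101). The value rested on PBS replicates 5 and 2, being -1.55 without PBS replicate 5 (adjusted p = 0.165) and -0.19 without both (adjusted p = 0.828). Cxcl10, its companion, had 1, 12, 3, 1 and 18 counts in PBS and 1 or 2 counts in each 4FM3 library.

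The same pair of libraries stood out for a T cell ligand. Ccl5, which T cells make and which draws T cells and macrophages, was not tested and had 8, 27, 9, 5 and 90 counts in PBS and 4, 13, 1, 7 and 6 in 4FM3. PBS replicate 5 was the highest of all 10 libraries and PBS replicate 2 the next. The 12 T cell markers summed to 76.7 and 40.9 CPM in PBS replicates 5 and 2, to between 11.8 and 27.6 CPM in the other PBS libraries and to between 13.0 and 22.0 CPM in 4FM3, with 1 of 4 tested markers, Il7r, lower, where 22.1% of all genes were. Il7r did not pass without PBS replicates 2 and 3 (adjusted p = 0.112). Their part in these values was not tested. Over the 22 tested members, PBS replicate 5 held the highest value for 7 (31.8%, against 18.6% of all tested genes) and PBS replicate 2 for 5 (22.7% against 12.7%), a tally made after the values were seen. PBS replicate 5 also held the lowest value for 4 of the 22 (16.1% of all tested genes). The lowest value lay in 4FM3 replicate 5 for 7 (8.79% of all tested genes), and that library held the highest for 3 (7.14%).

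Ccr1, which binds Ccl6 and Ccl9 on myeloid cells, read 7.16, 6.79, 5.57, 3.42 and 5.15 CPM in PBS and 5.06, 2.69, 3.53, 3.24 and 5.20 CPM in 4FM3. The groups overlapped, the ratio of 1.42-fold lower did not pass (log2 fold change -0.51, 95% interval -1.03 to 0.02, adjusted p = 0.106), and it passed without PBS replicate 4 (-0.63, adjusted p = 0.039). It also passed with library size alone (-0.69, adjusted p = 0.034) or the authors' factors (-0.64, adjusted p = 0.046) as scaling. It was 1.32-fold lower without PBS replicates 2 and 3 (adjusted p = 0.337). The 16 macrophage markers summed to between 559 and 1072 CPM in PBS and to between 498 and 565 CPM in 4FM3, with 7 of 16 lower, against 22.1% of all genes. Among them Trem2 was 1.99-fold lower and Csf1r 1.40-fold lower. Without PBS replicates 2 and 3, 4 of the 16 were lower, against 12.8% of all genes.

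2 further homeostatic ligands were tested and did not pass. Ccl21a, which is made by lymphatic endothelium and draws CCR7-bearing dendritic cells, read 14.8, 19.9, 15.97, 16.6 and 15.7 CPM in PBS and 11.2, 11.5, 17.8, 9.87 and 13.4 CPM in 4FM3. All PBS libraries were above all 4FM3 libraries other than 4FM3 replicate 3. The ratio was 1.30-fold lower with an adjusted p of 0.054 in edgeR (log2 fold change -0.38, SE 0.15), and DESeq2 did not call it (adjusted p = 0.063). It passed in limma-voom (-0.41, adjusted p = 0.038) and without 4FM3 replicate 3 (-0.53, adjusted p = 0.0073). In edgeR it also passed with library size alone (-0.56, adjusted p = 0.011) or the authors' factors (-0.52, adjusted p = 0.017) as scaling. Without PBS replicates 2 and 3 it was 1.23-fold lower (adjusted p = 0.231). Ccl21a has a near-identical copy, Ccl21b, listed at 0 in every library, and overlaps 4930578G10Rik on the other strand, so its count is uncertain. The 7 lymphatic markers, a list that also holds Ccl21a, summed to between 351 and 376 CPM in PBS and to between 314 and 386 CPM in 4FM3. Reln, Flt4 and Pdpn of this list fell (3 of 7, against 22.1% of all genes), and Prox1, which heart muscle also expresses, rose. With PBS replicates 2 and 3 left out Reln fell and Prox1 rose, whereas Flt4 and Pdpn did not pass (adjusted p = 0.089 and 0.099).

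Cxcl14, a ligand made by fibroblasts and epithelia, read 26.7, 29.4, 59.8, 29.6 and 19.8 CPM in PBS and 47.6, 55.4, 30.4, 60.5 and 19.1 CPM in 4FM3. PBS replicate 3 was about as high as the highest 4FM3 libraries, and the groups overlapped throughout. The log2 fold change was 0.36 (95% interval -0.47 to 1.19, adjusted p = 0.454), and 0.75 without PBS replicates 2 and 3 (adjusted p = 0.147). The last tested member, Ackr2, the atypical receptor that removes inflammatory CC chemokines, read 6.90, 9.81, 6.56, 5.44 and 8.63 CPM in PBS and 7.21, 6.5, 8.65, 4.78 and 10.7 CPM in 4FM3. Its log2 fold change of 0.02 had a 95% interval of -0.45 to 0.49, and it was 0.13 without PBS replicates 2 and 3 (adjusted p = 0.735).

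The remaining 37 members did not enter the test. 5 had no count in any library (Ccl20, Ccl21b, Ccl26, Ccl27b and Ccr10), where 0 counts allow up to 0.371 to 0.481 CPM per library and cover counting error only. Another 7 had at most 3 counts in each library, namely Ccl1, Ccr4, Ccr8, Ccr9, Ccr1l1, Cxcr1 and Cxcl17. The other 25 exceeded 3 counts somewhere. Among these, Ccl2, the main monocyte attractant, had 2 to 10 counts in PBS and 5 to 15 in 4FM3, Ccl3 had 1 to 12 and 0 to 4, Ccl4 had 0 to 17 and 0 to 9, and Ccl11 had 6 to 20 and 1 to 13. Cxcl13, which draws B cells, had 4 to 31 counts in PBS and 0 to 36 in 4FM3. Ccl19 had 0 to 14 and 0 to 2, Ccl25 had 2 to 10 and 3 to 8, Ccl27a had 3 to 12 and 4 to 7, and Ccl28 had 1 to 9 and 0 to 6. Ackr1, the Duffy receptor of venules and red cells, had 5 to 14 counts in PBS and 1 to 10 in 4FM3, and Ccr6 had 1 to 7 and 0 to 2. In all of these genes except the 5 at 0, the ranges of the groups met or overlapped.

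Several low genes, many of them known from dendritic cells and T cells and picked out after their counts were seen, lay lower in 4FM3. Ccr7, the receptor that takes dendritic cells to lymph nodes, had 6, 19, 13, 6 and 29 counts in PBS and 1, 5, 3, 2 and 2 in 4FM3. Ccr3, the receptor of eosinophils, had 3, 5, 3, 2 and 12 counts in PBS and 0, 1, 1, 0 and 0 in 4FM3. Ccl17, made by dendritic cells for CCR4-bearing T cells, had 3, 4, 6, 3 and 6 counts in PBS and 1, 1, 1, 1 and 0 in 4FM3. For these 3 and for Cxcr5, a B cell receptor with 6 to 12 counts in PBS and 1 to 4 in 4FM3, every PBS library was above every 4FM3 library. That pattern in CPM is shown by 13.4% of the 12906 tested genes, a set that does not hold these low genes. They were picked from the 37 members outside the test, and the share among genes with such low counts was not computed. Ccl22, the partner of Ccl17, had 6, 23, 14, 14 and 19 counts in PBS and 3, 10, 2, 5 and 6 in 4FM3. Cxcr3 had 11, 14, 10, 5 and 32 counts against 4, 5, 3, 4 and 4, and Ackr4, which clears CCL19 and CCL21, had 9, 8, 13, 6 and 22 against 4, 5, 4, 5 and 3.

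A fit with no filter on low counts included 54 members and called 9 of them lower, while 12.6% of all 20961 genes in that fit were lower. Of the members outside the main test, it called 6, all lower: Ccr7 (log2 fold change -2.19, adjusted p = 0.0046), Ccr3 (-3.07, 0.013), Cxcr3 (-1.58, 0.018), Ccl17 (-2.06, 0.027), Ccl22 (-1.29, 0.031) and Ackr4 (-1.20, 0.046). Cxcr5 stood at -1.08 and did not pass (adjusted p = 0.082), and Xcr1 did not pass in that fit (adjusted p = 0.057). The 4FM3 side of the 6 calls rests on totals of 2 to 26 counts over 5 libraries. The fit with no filter used all 10 libraries only.

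**Figure D4:**
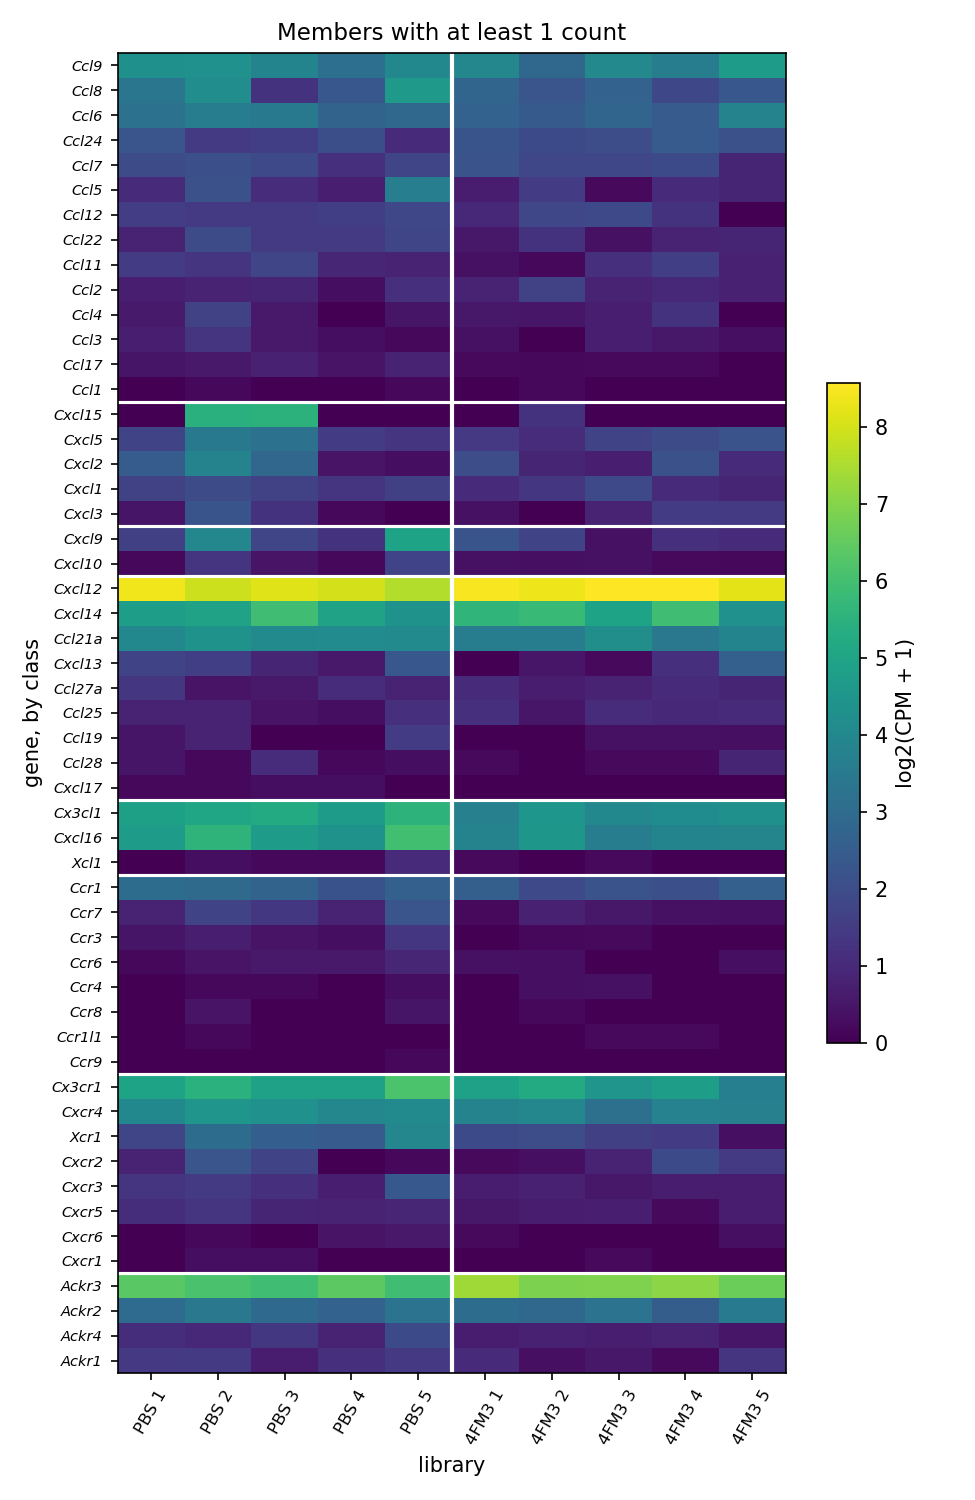
Level in each of the 10 libraries of the members named in the text that have at least 1 count, as log2(CPM + 1) in colour, with rows grouped by role and PBS and 4FM3 libraries separated by the white vertical line. Cxcl12 and Ackr3 are the brightest rows, most other members are near 0, and Cxcl15 is bright only in PBS replicates 2 and 3.

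By role class, the summed level of all 37 ligands was 478 ± 60.9 CPM in PBS and 485 ± 37.7 CPM in 4FM3 (SD, n = 5 each), and most of it was Cxcl12. The summed level of the 22 receptors was 182 ± 36.8 CPM in PBS and 194 ± 31.9 CPM in 4FM3. Both sums overlapped between the groups. The log2 of the sums differed by 0.03 for ligands and 0.10 for receptors (4FM3 minus PBS), whereas the mean of log2(CPM + 1) over the members, in which each gene weighs the same, differed by -0.32 and -0.33. The atypical receptors, mostly Ackr3, summed to between 69.6 and 92.2 CPM in PBS and to between 111 and 172 CPM in 4FM3. The transmembrane and XC ligands summed to between 45.5 and 109 CPM in PBS and to between 25.6 and 44.0 CPM in 4FM3. The CXC, CX3C and XC receptors overlapped, at 49.8 to 107 CPM in PBS and 27.8 to 55.8 CPM in 4FM3, and so did the inflammatory CC ligands, at 28.0 to 68.2 and 28.8 to 50.6 CPM. The ELR CXC ligands summed to 72.3 and 62.7 CPM in PBS replicates 2 and 3 and to between 3.74 and 9.63 CPM in the other 8 libraries. Most of those 2 high sums was Cxcl15, the ligand of lung epithelium, at 42.5 and 44.6 CPM.

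Many genes that work downstream of chemokine receptors were lower in 4FM3. Of 39 tested genes of a list of G-protein, kinase and cytoskeletal signalling, 25 fell and 0 rose in edgeR (1 rose in DESeq2, 0 in limma-voom and 1 at an unadjusted p under 0.05). Over all genes 22.1% were lower and 20.9% higher. The median of the 39 was -0.69 on the log2 scale, against -0.03 over all genes. Tiam1, an activator of the GTPase Rac, was 2.19-fold lower, Elmo1, which works with DOCK proteins in cell migration, 1.62-fold lower, Rap1b, a GTPase that activates integrins, 1.41-fold lower and Vav1, a Rac activator of blood cells, 2.44-fold lower. Without PBS replicates 2 and 3, 11 of the 39 fell, where 12.8% of all genes did. Most of these genes are also used by other receptors.

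Of 21 tested genes for cleaving chemokines or presenting them on the cell surface, 10 fell and 1 rose, with a median of -0.37, and 4 fell and 1 rose without PBS replicates 2 and 3. The shares lower over all genes were 22.1% and 12.8%. The one that rose was Gpc1, a heparan sulfate proteoglycan (1.6-fold higher). Mmp2, a protease that inactivates CXCL12, was 1.77-fold lower, and the syndecans Sdc2 and Sdc4, which carry heparan sulfate, were 1.38-fold and 1.44-fold lower. Of the proteases that release Cx3cl1 and Cxcl16, Adam10 was 1.13-fold lower (adjusted p = 0.044, and 0.140 without PBS replicates 2 and 3), and Adam17 did not pass (log2 fold change 0.05, adjusted p = 0.604).

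Among 26 tested genes that induce chemokines, 12 fell, with a median of -0.58, and 8 fell without PBS replicates 2 and 3, while 22.1% and 12.8% of all genes were lower in those fits. Tlr2, a sensor of bacterial lipoproteins, was 2.23-fold lower, the alarmin Il33 was 2.33-fold lower, and the receptors Tnfrsf1a and Il1r1 for tumour necrosis factor and interleukin-1 were 1.37-fold and 1.70-fold lower. None of the 26 rose in edgeR, DESeq2 or limma-voom or at an unadjusted p under 0.05, and Il17a, Ifnb1 and Il13 were at 0 in every library. Of 9 tested chemotactic genes that are not chemokines, 1 fell, Rarres2, which encodes chemerin (1.56-fold lower). The others with the smallest p did not pass, with log2 fold changes of -0.33 for C5ar1, -0.92 for Fpr1 and 0.25 for S1pr1.

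The cell types that make or read chemokines also differed in their markers, in a fit where 20.9% of all genes rose and 22.1% fell. All 10 fibroblast markers fell, summing to between 10110 and 12490 CPM in PBS and to between 4101 and 7088 CPM in 4FM3, and 9 of 10 fell without PBS replicates 2 and 3. Of 9 blood endothelial markers 4 rose, Kdr by 1.57-fold, while 3 of 7 venous markers fell, among them the adhesion molecule Vcam1 (2.23-fold lower). The genes listed as monocyte markers summed to between 1492 and 1973 CPM in PBS and to between 605 and 1279 CPM in 4FM3. Of the 7 tested, 3 fell. These were Fn1 (mean 1106 CPM in PBS against 479 in 4FM3), Ace (276 against 189) and Plac8 (3.79 against 0.917). Most of the sum was therefore Fn1, so the sum mainly follows that gene and cannot be read as the level of monocytes. Plac8 was not tested without PBS replicates 2 and 3. B and plasma cell markers fell in 2 of 4, Sdc1 (mean 33.96 CPM in PBS against 17.55 in 4FM3) and Cd22 (4.31 against 1.38). The other tested markers of that list, Jchain and Cd79b, did not pass in edgeR (adjusted p = 0.294 and 0.394). Mast cell or eosinophil markers fell in 1 of 1, with Epx at 0 in every library. The single tested natural killer cell marker, Klrk1, did not pass in edgeR (log2 fold change -2.04, adjusted p = 0.058). Klrk1 was lower at an unadjusted p under 0.05, and DESeq2 called it lower while limma-voom did not. Of 9 smooth muscle and pericyte markers 3 rose and 6 fell, all 9 cardiomyocyte markers rose, and none of 6 mesothelial or 8 red cell and platelet markers passed in edgeR (1 mesothelial marker passed at an unadjusted p under 0.05 and in DESeq2, and 0 red cell or platelet markers by either). With PBS replicates 2 and 3 left out, where 14.2% of all genes rose and 12.8% fell, 2 of 9 blood endothelial and 7 of 9 cardiomyocyte markers rose. Of the venous markers 3 of 7 then fell, and of the B and plasma cell markers 2 of 4. The listed monocyte markers fell in 2 of 6, which were Fn1 and Ace. Among the smooth muscle and pericyte markers 2 rose and 6 fell, and Kit, the tested mast cell marker, did not pass (adjusted p = 0.091). The share of these cells in the chemokine differences was not tested.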

How the data were processed

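Left ventricle RNA was sequenced in 10 libraries after depletion of ribosomal RNA with strand-preserving libraries, per the labels' protocols. For each gene and library the deposited table gave a whole-number count and the authors' normalized expression, a signal proportional to the count within a library (factors of 0.9311 to 1.114). The authors' transformed columns were not used. Per the submitters' processing notes the build was mm10. The sources used here name no aligner or counting tool and do not say whether counting used the strand. In 26 rows (0.131% to 0.161% of counts) a calendar date replaced the symbol, and these rows stayed in the fit.

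Counts were fitted over the whole table with edgeR 4.0.16 in R 4.3.3 (filterByExpr by group, TMM scaling, robust quasi-likelihood test, two-sided, Benjamini-Hochberg over all 12906 genes kept). Members' values are CPM on the TMM-scaled library size, and the fold changes are those of the fit. Lengths and positions came from GENCODE M21, and promoters from RefSeq. DESeq2 1.42.0, limma-voom (limma 3.58.1), other scalings, no filter, a replicate block, each library left out, and PBS replicates 2 and 3 left out served as alternatives.

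Members and lists were chosen with earlier results of these data known. Every tested member is described except 1, which entered the fit and the counts and is not reported here, and the genes named from a list are among the 4 with its smallest p. Adam10 and Adam17, the class of transmembrane and XC ligands, the motif search over all members, and the setting without PBS replicates 2 and 5 (the PBS libraries highest in T cell markers and in Cxcl9) were chosen after values were seen. After each group's mean was taken off, correlations between the deviations of same-numbered libraries ran from -0.0448 to 0.0595, so the replicate numbers were not treated as pairs.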

Additional observations from a re-analysis of the deposited data

Results flagged for a closer look

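In 3 of the 44 groups examined (22 tested members in 2 groups of 5), 1 library stood apart from the other 4 by more than Dixon's 95% limit of 0.71 of the range, and chance alone flags about 1 group in 20. Ccl6 was 13.3 CPM in 4FM3 replicate 5, against 4.38 to 5.93 CPM in the other 4FM3 libraries. Cxcl14 was 59.8 CPM in PBS replicate 3, against 19.8 to 29.6 CPM in the other PBS libraries. Cxcl16 was 22.3 CPM in 4FM3 replicate 2, against 11.2 to 13.9 CPM in the other 4FM3 libraries.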

How the results depend on the processing

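Over the 22 tested members and 18 alternatives, none of the 396 values reversed a call, 18 lost one and 16 gained one. Ackr3, Cx3cl1 and Cxcl16 passed under all 18, Cxcr4 under 13, Xcr1 under 12 and Cxcl12 under 11. The 2 members higher became 1 with library size alone, with the authors' deposited factors, without PBS replicates 2 and 3 and without PBS replicates 2 and 5, and 1 to 3 when 1 library was left out. The 4 members lower became 6 with DESeq2, 5 with limma-voom, 7 with library size alone and 6 with the authors' deposited factors. With no filter on low counts, where more genes were tested, 9 were lower. The number was 2 without PBS replicates 2 and 3, 2 without PBS replicates 2 and 5, and 3 to 6 when 1 library was left out. With the replicate number as a block, 2 members were higher and 3 lower, and Xcr1 did not pass (log2 fold change -1.58, adjusted p = 0.107). Library size alone and the authors' factors moved the median of all genes to -0.20 and -0.16, and the split of all genes from 2700 higher with 2846 lower to 1540 higher with 4967 lower and to 1772 higher with 4398 lower. The other causes were not tested. Members at a few counts per library are limited by depth, since 1 library's 0 allows up to 0.481 CPM.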
